A study of Mus musculus with 4 samples.

Results

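The miR-15 and miR-16 family comprises miRNAs that share the seed AGCAGCA, and 6 of its mouse members were followed here: mmu-miR-16-5p, mmu-miR-15a-5p, mmu-miR-195a-5p, mmu-miR-497a-5p, mmu-miR-15b-5p and mmu-miR-322-5p. They were chosen by name, as the rows of the deposited table whose miRNA name equals that of a member. Levels were not used for the choice, although earlier results of these data were known when it was made. The 6 members are among 1029 miRNA names in the table and account for 738 of its 85704 sequences. The short RNAs were R-sRNAs, that is, small RNAs bound to the RISC. In Ago-RP-Seq, a GW182 peptide on beads captures Ago proteins from a lysate, here of mouse cortex and hippocampus combined, and the short RNAs they hold are sequenced. The comparison is of young with old mice, which addresses whether the content of the RISC in brain cells differs with age. The young group comprised 2 libraries from 2-month-old BL6 mice and the old group 2 libraries from 18-month-old BL6 mice, and libraries are given in this order of age and replicate. According to the methods these were purchased male C57BL/6J mice, and neither group carries a transgene or received a treatment by the labels. The labels do not say whether a library is 1 mouse or a pool, so the p-values below measure only the spread between these libraries.

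A miRNA guides Ago proteins to mRNAs that pair with its seed, the bases near its 5′ end. Members of the miR-15 and miR-16 family are known to repress cell cycle genes such as cyclins and the anti-apoptotic gene Bcl2. The miR-15a and miR-16-1 pair was first linked to chronic lymphocytic leukemia through its loss together with Dleu2. Under the DISE concept of the study, a short RNA is also read by the viability of cells transfected with its 6mer seed (positions 2 to 7), where a low viability marks a toxic seed.

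The mature sequences (RefSeq, GRCm38.p6) are shown because the shared start is what makes these RNAs a family. Capitals mark bases 2 to 8, and each sequence runs 5′ to 3′.
mmu-miR-16-5p: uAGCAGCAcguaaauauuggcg
mmu-miR-15a-5p: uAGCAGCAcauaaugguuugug
mmu-miR-195a-5p: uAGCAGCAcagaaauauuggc
mmu-miR-497a-5p: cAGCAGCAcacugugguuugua
mmu-miR-15b-5p: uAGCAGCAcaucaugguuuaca
mmu-miR-322-5p: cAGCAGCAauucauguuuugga

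All 6 members carry the same 7 bases there, and they differ in the rest. After base 8, mmu-miR-16-5p and mmu-miR-195a-5p are the closest pair, with 11 of 13 bases in common. By contrast, mmu-miR-16-5p and mmu-miR-497a-5p share 4 of 14 bases in that stretch. Base 1 is U in 4 members and C in mmu-miR-497a-5p and mmu-miR-322-5p.

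The members come from 4 places in the genome (GRCm38.p6). Mir15a (mature 5p at chr14:61632075-61632096, minus strand) and Mir16-1 (chr14:61631936-61631957, minus strand) lie in an intron of the noncoding gene Dleu2. Mir15b (chr3:69009775-69009796, plus strand) and Mir16-2 (chr3:69009918-69009939, plus strand) lie in an intron of Smc4, a condensin gene. Mir497 (chr11:70234730-70234751) and Mir195a (chr11:70235062-70235082) lie on the plus strand, and Mir322 (chrX:53054306-53054327) on the minus strand, outside other annotated genes. The mature mmu-miR-16-5p is the same from Mir16-1 and Mir16-2, so its reads cannot be split between them.

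Levels are in CPM, that is, reads per 1000000 reads of a library, as the authors scaled them. Depths recovered from the size of 1 read in each library ran from 9067007 to 11388999 reads. The upper limit that a count of 0 allows (3 reads) was 0.263 to 0.331 CPM (counting error only). Pearson's r of log2 CPM between libraries ran from 0.979 to 0.988 across 456 miRNAs, which are not independent replicates. The neuron markers (4 of 4 in the table, miR-124-3p among them) summed to 197035 to 229199 CPM, and the liver marker miR-122-5p was at 5.01 to 7.11 CPM.

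The level of the family as a whole overlapped between the ages. Its summed level was 23043 and 21034 CPM in the 2-month libraries and 23221 and 22509 CPM in the 18-month libraries. The young mean was 22038 CPM ± 1420 (SD, n = 2), the old mean was 22865 CPM ± 504 (SD, n = 2), and the family held 2.10% to 2.32% of all reads. No test was made of this sum, because the members were chosen with results of these data known. In such bulk tissue, fewer cells of a type and less RNA per cell cannot be told apart.

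The 6mer seed of the family, AGCAGC, has a viability of 37.8% of the control in mouse cells. Of the 3925 seeds in the table, 19.9% have this viability or a lower one. All RNAs with this seed summed to 22829 and 20807 CPM in young and 22921 and 22340 CPM in old libraries, which placed it between rank 10 and rank 13 of all seeds. The 6 members supplied 98.8% to 99.0% of it, so the test of the seed covers nearly the same reads as the family sum and shares its limit. In limma on log2(CPM + 1) over 952 seeds, the change with age was 0.054 (log2, SE 0.22, adjusted p = 0.922), while 15.3% of all seeds had an unadjusted p under 0.05.

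Reads of any seed with a viability of 37.8% or less made up 13.0% and 13.3% of the 2-month libraries and 11.7% and 11.1% of the 18-month libraries. Within that toxic fraction, AGCAGC held 17.5% and 15.6% of the reads in young and 19.6% and 20.1% in old libraries. The share of the seed was thus higher in both old libraries than in both young ones, while its level overlapped. With 2 libraries against 2, an exact permutation test cannot give a p below 0.3333, so these shares are given without a test.

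The members spanned a wide range of abundance. mmu-miR-16-5p was the most abundant at 15898 and 15424 CPM in young and 17480 and 14524 CPM in old libraries. It ranked 12 among 1029 miRNAs by mean level and held 64.5% to 75.3% of the family. mmu-miR-15a-5p, which is made from the Dleu2 intron together with miR-16, was at 4248 and 3078 CPM in young and 3485 and 4824 CPM in old libraries.

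The intergenic pair on chromosome 11 followed. mmu-miR-195a-5p was at 1082 and 1129 CPM in young and 1147 and 1130 CPM in old libraries. Its neighbour mmu-miR-497a-5p varied more, at 1044 and 713 CPM in young and 690 and 1438 CPM in old libraries. Although these 2 miRNAs are neighbours on the same strand, the replicates of mmu-miR-497a-5p at 18 months differed by 1.06 on the log2 scale and those of mmu-miR-195a-5p by 0.022.

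The least abundant members were mmu-miR-15b-5p and mmu-miR-322-5p. mmu-miR-15b-5p, from the Smc4 intron, was at 448 and 342 CPM in young and 258 and 375 CPM in old libraries. mmu-miR-322-5p, from the X chromosome, was at 322.5 and 349 CPM in young and 162 and 219 CPM in old libraries. In this order of levels, mmu-miR-195a-5p and mmu-miR-497a-5p overlapped over the 4 libraries, as did mmu-miR-15b-5p and mmu-miR-322-5p, whereas the other neighbours in the order did not.

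**Figure D1:**
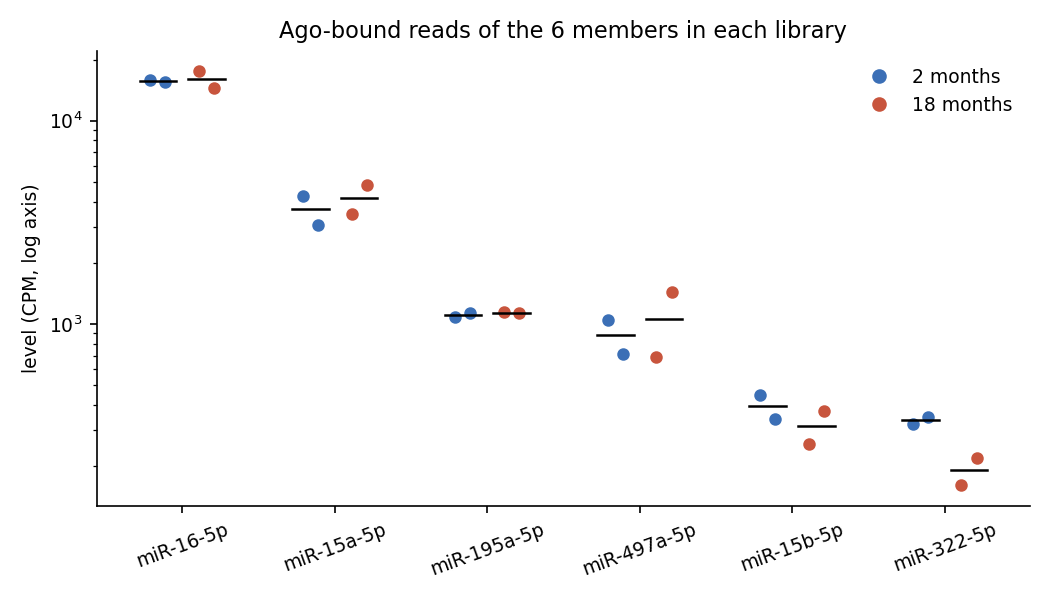
Level of each member (x axis) in CPM on a log axis, with 1 point per library in blue for 2 months and red for 18 months and a line at the mean of each age (n = 2). mmu-miR-322-5p is the member whose old libraries (162 and 219 CPM) sit well below the young ones (322.5 and 349 CPM), while mmu-miR-16-5p stays between 14524 and 17480 CPM.

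One member changed with age at the threshold of the study, an unadjusted p under 0.05, and it was mmu-miR-322-5p. Its log2 change was -0.83 (limma on log2(CPM + 1), two-sided, SE 0.23, unadjusted p of 0.0113, adjusted p = 0.229), and both old libraries were below both young ones. The count of 1 of 6 members compares with 16.2% of the 456 tested miRNAs with such a p, and 12.1% of all that were also lower at 18 months. After Benjamini-Hochberg adjustment by limma, none of the 6 members was under 0.05, as against 0.219% of all tested miRNAs. The count of members was also 0 by edgeR, beside 0 of all 456 miRNAs, and 0 by DESeq2, beside 19 of 456.

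The other members did not pass the test. The log2 changes were 0.025 for mmu-miR-16-5p (SE 0.21, limma adjusted p = 0.956) and 0.18 for mmu-miR-15a-5p (SE 0.27, adjusted p = 0.737). For mmu-miR-195a-5p the change was 0.042 (SE 0.20, limma adjusted p = 0.929), for mmu-miR-497a-5p 0.21 (SE 0.39, adjusted p = 0.797), and for mmu-miR-15b-5p -0.33 (SE 0.27, adjusted p = 0.517). With 2 libraries per age such values do not show that the levels were equal. The ages did not overlap for mmu-miR-322-5p and mmu-miR-195a-5p, 2 of 6 members, and 53.5% of all tested miRNAs had ages that did not overlap. The young and old means of mmu-miR-195a-5p, 1106 and 1138 CPM, were nonetheless close.

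The median log2 change over the members was 0.034, beside -0.22 over all 456 miRNAs. With the median of ratios as the scale, the change of all miRNAs had a median of -0.014 and that of the members a median of 0.25. On that scale 39 miRNAs were higher and 25 lower at an unadjusted p under 0.05, against 19 higher and 55 lower in CPM. mmu-miR-322-5p fell on both scales, by 0.62 on the log2 scale after rescaling (limma, unadjusted p of 0.0329, adjusted p = 0.300). It was the 1 member with p under 0.05 in each other fit made with all 4 libraries. Without replicate 1 of the 18-month mice, however, its change was -0.61 with an unadjusted p of 0.0699 (limma).

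**Figure D2:**
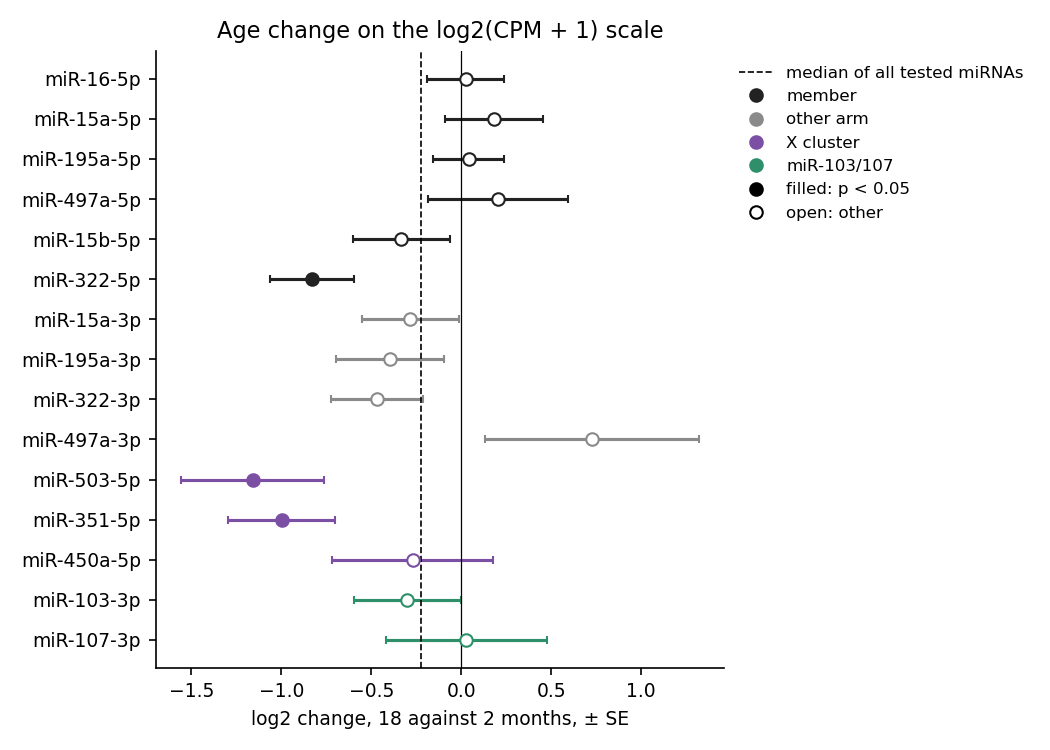
Log2 change at 18 against 2 months on the log2(CPM + 1) scale (x axis) with its SE, for the 6 members, the tested other arms of their hairpins, the tested neighbours in the X cluster, and miR-103-3p and miR-107-3p. Filled points have an unadjusted p under 0.05 (miR-322-5p, miR-503-5p and miR-351-5p, all lower), and the dashed line is the median of -0.22 over 456 miRNAs.

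mmu-miR-322-5p is made from a cluster of hairpins on the X chromosome that also encodes miR-503, miR-351, miR-542 and miR-450. Mature sequences of 2 of these neighbours are shown with capitals at bases 2 to 8, since one starts like the family and the other does not.
mmu-miR-503-5p: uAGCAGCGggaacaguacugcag
mmu-miR-351-5p: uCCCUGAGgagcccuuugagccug

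mmu-miR-503-5p (chrX:53054027-53054049) shares the 6mer seed AGCAGC and differs from the family at base 8. It was at 34.0 and 34.2 CPM in young and 9.74 and 22.1 CPM in old libraries, a log2 change of -1.16 (limma, SE 0.40, unadjusted p of 0.0255, adjusted p = 0.266). mmu-miR-351-5p (chrX:53053315-53053338), whose seed is a different one, was at 25.7 and 27.5 CPM in young and 15.6 and 10.5 CPM in old libraries, a change of -0.997 (SE 0.30, unadjusted p of 0.0145, adjusted p = 0.229). For both neighbours the old libraries were below the young ones, and 53.5% of all tested miRNAs had ages that did not overlap.

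mmu-miR-450a-5p, at 17.4 and 9.13 CPM in young and 7.28 and 14.4 CPM in old libraries, overlapped between the ages (log2 change -0.27, limma adjusted p = 0.765). In all, 2 of the 3 neighbours with a mean of at least 10 CPM had an unadjusted p under 0.05, and both were lower, beside 16.2% of all tested miRNAs with such a p and 12.1% that were also lower. The rest of the cluster was under 10 CPM and was not tested. Of this rest, mmu-miR-542-3p was at 11.2 and 5.004 CPM in young and 1.89 and 3.97 CPM in old libraries. mmu-miR-542-5p and mmu-miR-351-3p also had both old libraries below both young ones, but mmu-miR-351-3p rested on only 9 and 10 reads in young and 6 and 2 reads in old libraries. The ages overlapped for mmu-miR-503-3p, mmu-miR-450a-1-3p, mmu-miR-450a-2-3p, mmu-miR-450b-5p and mmu-miR-450b-3p. Among these, mmu-miR-450a-2-3p and mmu-miR-450b-5p had a higher mean at 18 months, on only 1 to 14 and 1 to 7 reads per library. The calls of the neighbours depended on single libraries. mmu-miR-503-5p had an unadjusted p of 0.0634 by edgeR, and by limma of 0.0576, 0.0597 and 0.0961 without 2-month replicate 1, 2-month replicate 2 and 18-month replicate 1, with a log2 change of -0.61 in the last case. mmu-miR-351-5p had a limma p of 0.05001 without 2-month replicate 2 and 0.0732 without 18-month replicate 2.

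**Figure D3:**
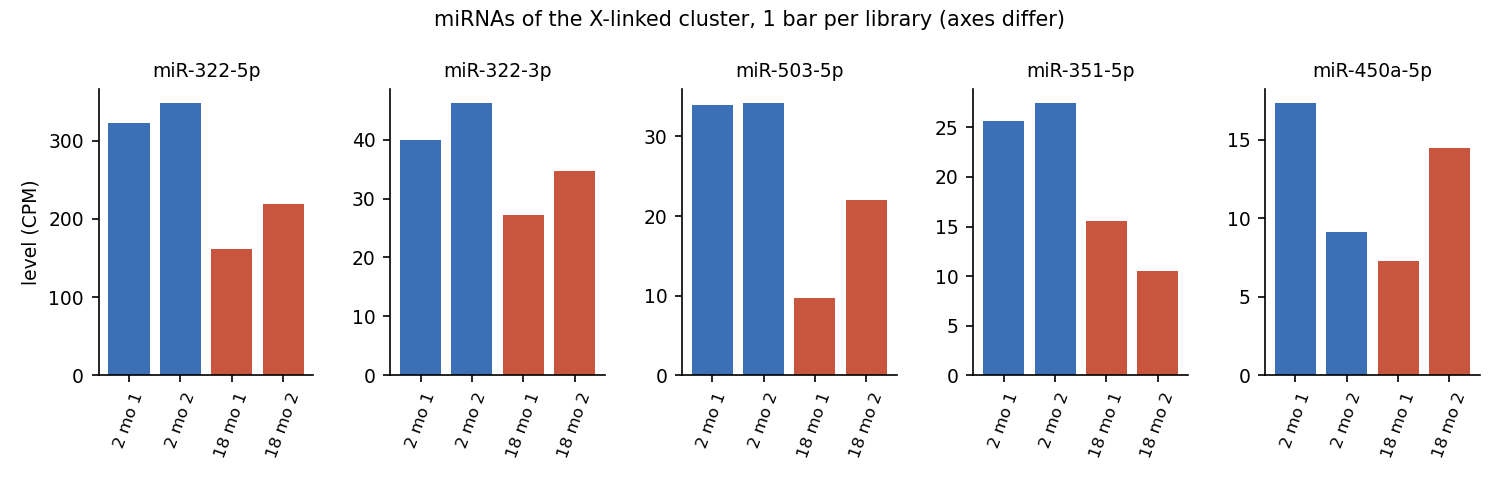
Level in CPM (y axis, different for each panel) of miRNAs from the X-linked cluster, with 1 bar per library in blue for 2 months and red for 18 months. miR-322-5p, miR-322-3p, miR-503-5p and miR-351-5p have both old bars below both young ones, and miR-450a-5p (7.28 to 17.4 CPM) does not. Of all tested miRNAs, 53.5% had ages that did not overlap.

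Some miRNAs known from other cell types were also lower in the old libraries, while others overlapped or were higher. Of all 456 tested miRNAs, 16.2% had an unadjusted p under 0.05 by limma, and 12.1% had such a p and were lower at 18 months. The ages did not overlap for 53.5% of all tested miRNAs. The endothelial markers miR-126a-3p and miR-126a-5p (2 of 2 in the table) summed to 12243 and 11472 CPM in young and 5422 and 8990 CPM in old libraries, and 1 of the 2 had an unadjusted p under 0.05. That one was miR-126a-3p, at 9242 and 8854 CPM in young and 2557 and 6489 CPM in old libraries, whereas miR-126a-5p from the same hairpin overlapped between the ages at 2501 to 3000.3 CPM (limma adjusted p = 0.901). The smooth muscle markers miR-143-3p and miR-145a-5p (2 of 2 in the table, 0 of 2 with such a p by limma) summed to 6415 and 6559 CPM in young and 5033 and 4915 CPM in old libraries. Replicate 1 of the 18-month mice was the lowest library for the endothelial sum, for mmu-miR-322-5p and for mmu-miR-503-5p, whereas replicate 2 was the lowest for the smooth muscle sum and for mmu-miR-351-5p. The part of these cells in the change of mmu-miR-322-5p was not tested. Markers of white blood cells and microglia (4 of 4 in the table, 0 of 4 with such a p by limma) summed to 3139 and 3566 CPM in young and 2767 and 2897 CPM in old libraries. Most of this sum was miR-150-5p, at 2654 and 2832 CPM in young and 2344 and 2370 CPM in old libraries. miR-142a-5p was also lower in both old libraries, whereas miR-142a-3p and miR-223-3p overlapped between the ages. Markers of red blood cells (3 of 5 in the table) summed to 1703 to 3382 CPM with overlap between the ages. The neuron marker miR-124-3p was also lower, at 104115 and 107034 CPM in young and 98221.5 and 69405 CPM in old libraries. The neuron markers miR-9-5p, miR-128-3p and miR-132-3p overlapped, as did the sums for oligodendrocytes, choroid plexus and muscle. Of the muscle markers, miR-133a-3p was higher in both old libraries (limma, unadjusted p of 0.0395). The muscle markers miR-1a-3p and miR-206-3p were lower, as was the liver marker miR-122-5p.

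Each hairpin gives a 5p and a 3p arm, and the members are the 5p arms. The 5p arm was the main one in the RISC for all 6 members in each library, at 99.8% to 99.9% of the reads of both arms for miR-16 and 99.3% to 99.7% for miR-15a. miR-195a was at 98.8% to 99.3% and miR-15b at 97.3% to 98.6%. miR-497a was at 97.3% and 88.0% in young and 91.6% and 91.9% in old libraries, so its young replicates differed by more than the ages did.

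The hairpin of miR-322 was the least one-sided in 3 of the 4 libraries, and that of miR-497a was in 2-month replicate 2. Its 5p share was 89.0% and 88.3% in young and 85.6% and 86.3% in old libraries, and the ages did not overlap. Its other arm, mmu-miR-322-3p, was at 39.9 and 46.3 CPM in young and 27.2 and 34.7 CPM in old libraries (log2 change -0.47, SE 0.26, limma adjusted p = 0.402). Both arms were thus at lower levels in the old libraries, and the 5p arm passed the test while the 3p arm did not. Whether the arms differed in their change was not tested.

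Of the 7 other arms, 4 had a mean of at least 10 CPM and were tested, and 0 of them had an unadjusted p under 0.05 by limma or by edgeR. By limma, 16.2% of all tested miRNAs had such a p. The ages did not overlap for 3 of these 4 arms, beside 53.5% of all tested miRNAs. These were mmu-miR-15a-3p, mmu-miR-195a-3p and mmu-miR-322-3p, each lower in the old libraries. mmu-miR-497a-3p was at 29.4 and 97.1 CPM in young and 63.1 and 126 CPM in old libraries (log2 change 0.73, SE 0.59, limma adjusted p = 0.517). This value rested on the young libraries, since without 2-month replicate 1 the change was -0.12 and without 2-month replicate 2 it was 1.57 (limma, unadjusted p of 0.0121). The 3p arms of the miR-16 hairpins, mmu-miR-16-1-3p and mmu-miR-16-2-3p, do differ in sequence, and neither was tested. mmu-miR-16-1-3p was higher in both old libraries, at 6.20 and 8.96 CPM in young and 12.9 and 10.9 CPM in old libraries. mmu-miR-16-2-3p, at 6.15 to 14.2 CPM, overlapped between the ages, as did the untested mmu-miR-15b-3p.

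A miRNA in the RISC is a mixture of sequences that differ at their ends, and 184 of the 738 sequences of the members had a mean of at least 1 CPM. At an unadjusted p under 0.05 in limma, 5 of these were higher and 7 lower at 18 months. That is 6.52% of them, beside 10.1% of all 14287 tested sequences, and 0 of the 184 passed after adjustment. Over all sequences, 5.87% were higher and 4.23% lower.

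The lower sequences were mostly forms of mmu-miR-322-5p, of which 6 of 15 tested passed and 14 of 15 had a log2 change below 0 (median -0.62). Of the 14103 tested sequences outside the family, 7172 had a log2 change below 0 (median -0.0092). The forms of mmu-miR-322-5p overlap and share their source, so they are no separate evidence for its change. The forms that passed include its 3 most abundant ones, shown with capitals at bases 2 to 8, which differ only at the 3′ end.
mmu-miR-322-5p, 22 bases: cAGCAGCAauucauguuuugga
mmu-miR-322-5p, 20 bases: cAGCAGCAauucauguuuug
mmu-miR-322-5p, 21 bases: cAGCAGCAauucauguuuugg

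The form with 22 bases was at 91.9 and 81.7 CPM in young and 50.7 and 55.5 CPM in old libraries (log2 change -0.70, limma, unadjusted p of 0.0405, adjusted p = 0.469). The form with 20 bases was at 77.5 and 94.1 CPM in young and 30.4 and 58.3 CPM in old libraries (-1.003, unadjusted p of 0.0225, adjusted p = 0.423). The form with 21 bases was at 65.9 and 81.7 CPM in young and 40.9 and 38.5 CPM in old libraries (-0.87, unadjusted p of 0.0174, adjusted p = 0.396). In each form both old libraries were below both young ones. Fewer forms passed without a library, namely 3 without either 2-month replicate and 2 without 18-month replicate 1.

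For mmu-miR-16-5p, 0 of 87 tested sequences had an unadjusted p under 0.05 by limma, and for mmu-miR-195a-5p 0 of 20. The annotated form of mmu-miR-16-5p alone was at 10089 and 9793 CPM in young and 11081 and 8256 CPM in old libraries. Of mmu-miR-15a-5p, 2 of 33 were higher, one of them the form uAGCAGCAcauaaugguuu with 19 bases. It was at 9.82 and 9.83 CPM in young and 16.1 and 26.2 CPM in old libraries (log2 change 0.99, SE 0.35, limma, unadjusted p of 0.0180, adjusted p = 0.397). Of mmu-miR-15b-5p 1 of 11 was lower and of mmu-miR-497a-5p 3 of 18 were higher.

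The start of a read sets its seed, and the members kept AGCAGC to different extents. It was the seed of 97.7% to 99.1% of the reads of mmu-miR-16-5p, mmu-miR-15a-5p, mmu-miR-195a-5p and mmu-miR-15b-5p in each library. mmu-miR-322-5p kept it in 89.0% and 84.2% of the reads in young and in 84.6% and 84.1% in old libraries. A form that starts 1 base upstream made up 10.03% and 14.6% of its reads in young and 13.3% and 14.8% in old libraries. Its most abundant sequence is shown with capitals at bases 2 to 8.
mmu-miR-322-5p, 1 base upstream: gCAGCAGCaauucauguuuug

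This form carries the 6mer seed CAGCAG with a viability of 59.8%, in place of 37.8%. The sequence was at 19.7 and 32.9 CPM in young and 12.3 and 22.2 CPM in old libraries, and the ages overlapped. In mmu-miR-16-5p, mmu-miR-195a-5p, mmu-miR-15b-5p and mmu-miR-497a-5p an upstream start that matches the hairpin made up at most 0.373% of the reads in any library. Whatever their first base, reads with the shifted seed UAGCAG reached 0.702% for mmu-miR-15b-5p, 0.622% for mmu-miR-195a-5p and 0.412% for mmu-miR-16-5p.

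mmu-miR-497a-5p kept AGCAGC in 94.1% and 93.4% of its reads in young and in 89.6% and 93.0% in old libraries, and here most of the other reads carried a base change within the seed. A sequence among its 3 most abundant carries G in place of A, written A2G, with positions counted from 1 at the 5′ end of the mature sequence. It is given after its unchanged counterpart, with capitals at bases 2 to 8.
mmu-miR-497a-5p: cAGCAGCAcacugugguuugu
mmu-miR-497a-5p, A2G: cGGCAGCAcacugugguuugu

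The change was noticed after the values were seen. It turns the 6mer seed into GGCAGC, with a viability of 9.7%, and 1.48% of the 3925 seeds have this viability or a lower one. Over all reads that match the first 18 bases with at most this difference, A2G was carried by 3.64% (95% Wilson confidence interval 3.30% to 4.01%) and 3.70% (3.31% to 4.15%) at 2 months. At 18 months the shares were 7.39% (6.80% to 8.02%) and 4.49% (4.14% to 4.87%). These rest on 389, 291, 521 and 569 reads, and the intervals cover counting error only.

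Both old shares were above both young ones, with means of 5.94% ± 2.05 (SD, n = 2) and 3.67% ± 0.0441 (SD, n = 2). The size of the difference rested on 18-month replicate 1, and without it was 0.819 percentage points in place of 2.27. The share was highest in the library where mmu-miR-497a-5p itself was lowest. The level of the sequence shown was 30.8 and 22.5 CPM in young and 41.2 and 52.8 CPM in old libraries, a log2 change of 0.80 (SE 0.33, limma, unadjusted p of 0.0349, adjusted p = 0.458). The unadjusted p was 0.172 without 2-month replicate 2, 0.161 without 18-month replicate 2 and 0.0629 with no filter on low values.

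No other member had such a share of A2G, although all of them have A at this position. The mean over the 4 libraries was 0.142% for mmu-miR-195a-5p and 0.0958% for mmu-miR-16-5p, and mmu-miR-322-5p had 0 reads with it among 1446 to 3339 reads per library. Of the 322 single-base substitutions that could be counted in the first 18 bases of the 6 members, the next highest was A5G of mmu-miR-195a-5p at a mean of 0.621%. Whether the G was present in the RNA or arose in the making of the library was not tested.

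**Figure D4:**
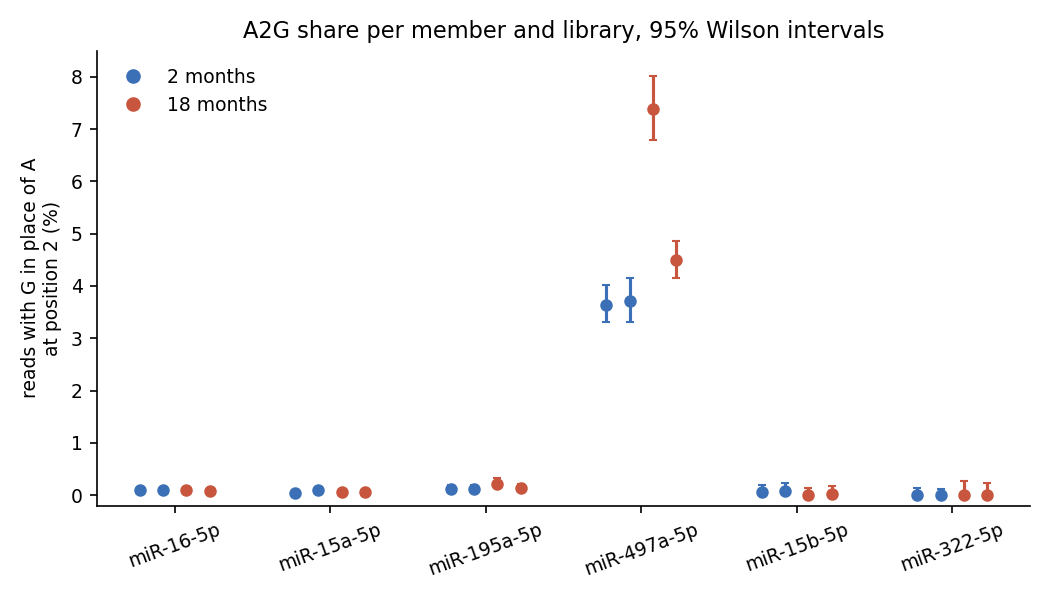
Share of reads with A2G in percent (y axis) for each member, with 1 point per library in blue for 2 months and red for 18 months, and 95% Wilson intervals that cover counting error only. miR-497a-5p stands at 3.64% to 7.39%, and the other members stay near 0.

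At the 3′ end, the members differed in which bases were counted as added, that is, as departing from the sequence each was compared with. For mmu-miR-15a-5p, reads that end in 1 extra U beyond the matching part made up 16.7% and 18.8% in young and 11.8% and 13.1% in old libraries. Reads with 1 extra A made up 9.30% to 12.4%. The Mir15a hairpin was not used here, so added bases of mmu-miR-15a-5p were counted against its mature sequence alone, and an extra base may be encoded.

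The length of mmu-miR-15a-5p is not separate from its added bases, because only the mature sequence of 22 bases was used. Aligned forms with 23 bases therefore carry an added base, and the most abundant of them ends in the extra U. Forms with 23 bases made up 29.8% and 32.1% in young and 24.4% and 23.1% in old libraries. The most abundant of them, uAGCAGCAcauaaugguuugugu, was at 702 and 569 CPM in young and 404 and 623 CPM in old libraries, and its level overlapped (log2 change -0.33, limma adjusted p = 0.743). The mean length was 21.88 and 21.93 bases at 2 months and 21.80 and 21.65 bases at 18 months.

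mmu-miR-16-5p carried 1 extra A beyond its hairpin in 9.66% and 9.22% of its reads in young and in 10.7% and 11.4% in old libraries. An extra U that departs from the hairpin made up 0.227% to 0.362% of the reads of this member. A U added at its annotated end could not be counted, because a miR-16 hairpin itself continues with U. The sequence of 23 bases with that U held 9.37% of the member. The shares of U in mmu-miR-16-5p and mmu-miR-15a-5p are therefore not like for like. mmu-miR-195a-5p had an extra A in 6.84% to 8.32% of its reads, with overlap between the ages. mmu-miR-322-5p had an extra A in 5.89% to 8.90% and an extra U in 2.51% to 4.68%. These shares were not tested, since the exact permutation test of single values cannot go below 0.3333 with 2 libraries against 2.

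**Figure D5:**
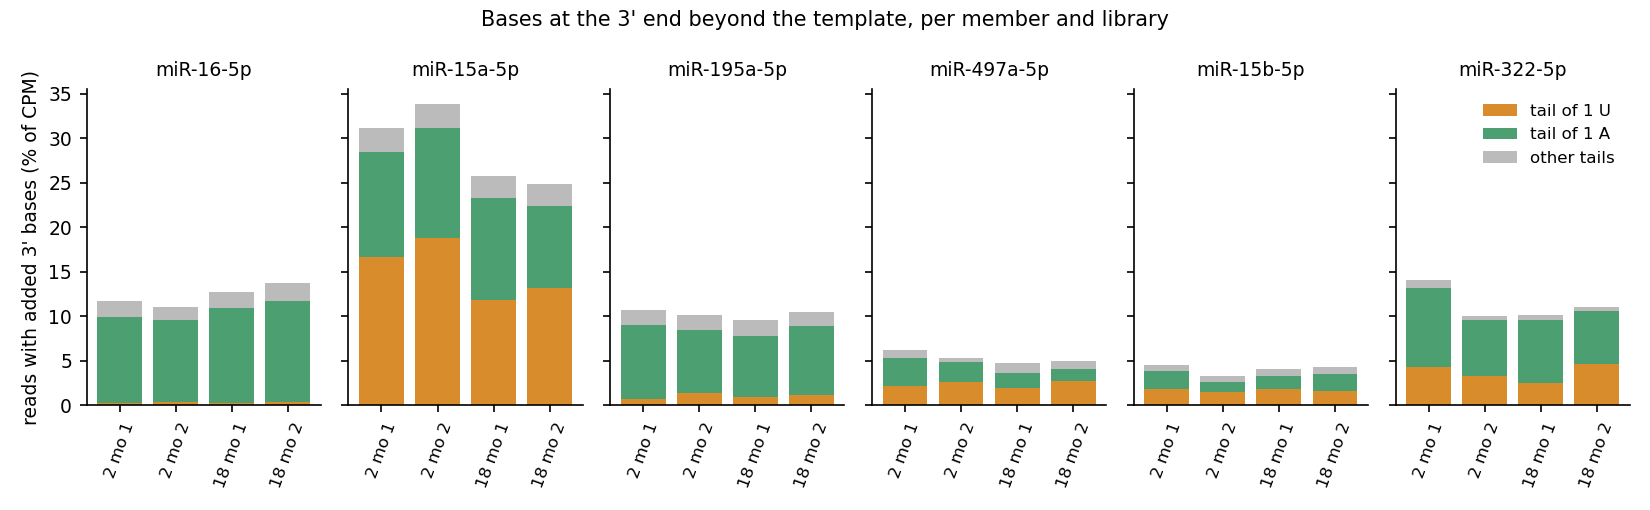
Share of the CPM of each member with bases added at the 3′ end (y axis, percent), 1 stacked bar per library, with 1 added U in orange, 1 added A in green and other tails in grey. miR-15a-5p has the tallest bars, with 1 U at 16.7% and 18.8% in young and 11.8% and 13.1% in old libraries. In miR-16-5p, 1 added A, at 9.22% to 11.4%, is the largest class of tail. Added bases of miR-15a-5p were counted against its mature sequence alone and those of the other members against hairpins, so these bars are not like for like.

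The annotated 3′ end was not the main one in each member. For mmu-miR-195a-5p, forms that run past the annotated end within the hairpin made up 45.0% to 49.7% of the reads, and the most abundant sequence was uAGCAGCAcagaaauauuggca with 22 bases. For mmu-miR-497a-5p, forms with 21 bases made up 75.2% to 82.3%, 1 base shorter than annotated. Forms of 19 bases made up 11.6% and 12.2% of mmu-miR-15b-5p in young and 14.8% and 15.2% in old libraries. The level of the most abundant of them overlapped, at 51.0 and 40.9 CPM in young and 37.0 and 56.1 CPM in old libraries.

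miR-103-3p and miR-107-3p, from introns of the Pank genes, carry a seed that is that of the family shifted by 1 base. mmu-miR-103-3p was at 7574 and 4876 CPM in young and 4205 and 5792 CPM in old libraries (log2 change -0.30, limma adjusted p = 0.582). mmu-miR-107-3p was at 4230 and 1771 CPM in young and 2226 and 3505 CPM in old libraries (0.029, adjusted p = 0.975). The ages overlapped for both. Forms of mmu-miR-103-3p that carry AGCAGC held 8.98 to 21.6 CPM. RNAs without a miRNA name that carry this seed held 195.5 and 167 CPM in young and 224 and 214 CPM in old libraries, most of which the table assigns to the precursor mir-16-1.

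Over the 4 libraries, the miRNAs of at least 100 CPM whose levels were closest to the pattern of the family sum were mmu-miR-219a-2-3p, mmu-miR-93-5p and mmu-miR-25-3p, out of 267 compared. Their Euclidean distances on log2(CPM + 1), centred on the mean of each miRNA, were 0.0565, 0.0807 and 0.0886. mmu-miR-219a-2-3p was at 886, 789, 887 and 822 CPM in the same order of libraries as above.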

How the data were processed

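Ago-bound short RNAs were sequenced in 4 libraries of mouse cortex and hippocampus, 2 per age, grouped by the sample labels. The authors de-multiplexed, trimmed (Trim Galore per the labels) and cleaned reads, removed rare ones and matched the others to small RNAs by BLAST, and the deposited values are CPM per sequence. The versions of these tools and the genome build are not given in the sources used here. The deposited table also holds a row total (a summed signal, not used here) and a viability score, the authors' percent viability of the 6mer seed over 3 mouse cell lines. Here CPM were divided by the value of 1 read, and 100% came out whole within 0.0006 CPM. Depths were 10484940 and 11388999 reads at 2 months and 10575081 and 9067007 at 18 months.

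CPM were summed by miRNA name and by 6mer seed (minimum mean of 10 CPM) or kept per sequence (minimum mean of 1 CPM), and tested over all features with limma 3.58.1 (trend) on log2(CPM + 1), which understates changes of rare RNAs, two-sided with Benjamini-Hochberg adjustment. The study takes an unadjusted p under 0.05 without naming the test for rows. As alternatives, fits were made with a replicate block, other pseudocounts (0.1 and 5), other filters, no trend, median of ratios, edgeR 4.0.16 and DESeq2 1.42.0 on the whole reads, and each library left out. Scripts used R 4.3.3, Python 3.11.15, pandas 2.3.3, numpy 2.4.6 and scipy 1.17.1 and were tested on simulated data.

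The members and lists were chosen with earlier results of these data known. The names given are the members, the other arms of their hairpins, their cluster neighbours, miR-103-3p and miR-107-3p, other carriers of AGCAGC at 10 CPM or more, the 3 most abundant sequences per member, the 3 miRNAs closest to the family sum, and cell type markers. Other sequences, substitutions and lengths were chosen after their values were seen. Read ends were compared with RefSeq hairpins (GRCm38.p6), requiring 16 matching bases and at most 4 added ones. A hairpin was found for each member other than mmu-miR-15a-5p, and no sequence was named mmu-miR-195b.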

Additional observations from a re-analysis of the deposited data

How the results depend on the processing

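The count of miRNAs with an unadjusted p under 0.05, 74 of 456, was 125 of 1029 with no filter on low values and 43 of 273 at a minimum mean of 100 CPM, and 55 to 74 with a library left out. For sequences the count of 1443 became 3327 of 85704 with no filter and 424 of 3141 at a minimum mean of 10 CPM, and ran from 1065 to 1411 with a library left out. For 6mer seeds the count of 146 became 326 of 3925 with no filter and 57 of 298 at 100 CPM, and ran from 118 to 155. Under other filters the number of features tested changes with the count, and the cause of the other shifts was not tested. The forms of mmu-miR-322-5p with such a p, 6 of 15, were 3 of 4 at a minimum mean of 10 CPM and 2 to 5 with a library left out, and the count of members with such a p ran from 0 to 1. The log2 difference of the family sum between the ages, 0.054, was 0.27 after rescaling by the median of ratios, which shifts the median of all miRNAs by 0.21, and it ran from -0.011 to 0.12 with a library left out.

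Changes that turned their sign did so only with a library left out, and none of them had an unadjusted p under 0.05 with all 4 libraries. With a library left out, the log2 change ran from -0.11 to 0.16 for mmu-miR-16-5p, from -0.053 to 0.42 for mmu-miR-15a-5p, from -0.32 to 0.74 for mmu-miR-497a-5p, from -0.12 to 1.57 for mmu-miR-497a-3p, from -0.72 to 0.18 for mmu-miR-450a-5p, from -0.62 to 0.017 for mmu-miR-103-3p, from -0.60 to 0.66 for mmu-miR-107-3p and from -0.013 to 0.12 for the seed AGCAGC. The adjusted p of mmu-miR-322-5p ran from 0.212 to 0.418 over 13 alternatives.

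Fits without a library leave 1 sample in an age, which is then taken to vary like the others. Same-numbered libraries are from different mice, with a correlation of their deviations of 0.180. With the replicate block, 79 miRNAs, 1530 sequences and 130 seeds had an unadjusted p under 0.05, and mmu-miR-322-5p had an unadjusted p of 0.0152 by limma. Depth limits RNAs near 0.331 CPM, and 2 libraries per age limit each comparison more than depth does for the members, which had at least 1710 reads in every library.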

Other observations

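The seed GGCAGC, which A2G gives to mmu-miR-497a-5p, was carried by 42 sequences in all and was chosen for description after the values were seen. Together they were at 57.8 and 48.7 CPM in young and 72.3 and 80.8 CPM in old libraries. mmu-miR-497a-5p held 64.2% and 52.4% of this at 2 months and 67.2% and 77.1% at 18 months, and mmu-miR-16-5p supplied 11.9 to 17.1 CPM. In limma over all seeds the log2 change of GGCAGC was 0.52 (SE 0.22, unadjusted p of 0.0535, adjusted p = 0.324).

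Among the substitutions of mmu-miR-195a-5p, A5G was carried by 0.510% and 0.621% of the reads in young and by 0.654% and 0.699% in old libraries. Over the other members A5G had a mean of 0.128% in mmu-miR-16-5p, 0.117% in mmu-miR-15a-5p, 0.103% in mmu-miR-15b-5p, 0.0995% in mmu-miR-322-5p and 0.0832% in mmu-miR-497a-5p.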
